A study of Homo sapiens with 4 samples.

Results

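The genes examined were 8 components and regulators of the PML nuclear body and of its modification by SUMO, namely PML, SP100, SP140, DAXX, SUMO2, SUMO3, RNF4 and ATRX. They were chosen by name, and all array probes that carry one of the 8 names were taken, 24 of the 41000 probes on the array. NB4 is an established human acute promyelocytic leukemia (APL) cell line that carries the PML-RARA fusion. The study set 2 independent flasks of naive NB4 cells against 2 flasks of an NB4 line resistant to arsenic trioxide (ATO), which the sample labels call NB4-VM-AsR1 and the methods NB4-EV-AsR1 (taken here for the same clone). Both lines were grown in RPMI medium with FBS, and the resistant cells had been kept without ATO for a time before the experiment. The resistant line is a single clone, and nothing here separates what belongs to resistance from what belongs to that clone. RNA was labeled with Cy3 and each flask was hybridized to its own 1-colour Agilent array.

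PML nuclear bodies are spherical structures of the nucleus built on a shell of PML protein. PML carries SUMO, a small ubiquitin-like modifier, and other proteins of the body, such as SP100 and DAXX, are held there through SUMO and motifs that bind it. ATO binds PML directly, drives its conjugation to SUMO2 and SUMO3, and so marks PML and the PML-RARA fusion protein for RNF4, a ubiquitin ligase that recognizes SUMO chains and sends its targets to the proteasome. SP140 is a leukocyte relative of SP100, and DAXX works with ATRX to deposit the histone variant H3.3. PML and SP100 are well known interferon-induced genes.

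The 60-base probes of PML and SP140 are shown because the changes read by probes of the same gene differed in size. For neither gene was unequal change shown by the pair test given below. The first 4 lines are the PML probes that list the transcript NM_002675 among their targets, in order of their start in the transcript each was designed on. The last 2 lines are the SP140 probes, both designed on NM_007237. Sequences are those of the array's own probe column.
PML A_23_P334664: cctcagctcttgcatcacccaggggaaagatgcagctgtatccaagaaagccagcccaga
PML A_24_P133542: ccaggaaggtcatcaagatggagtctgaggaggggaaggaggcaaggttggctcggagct
PML A_23_P306148: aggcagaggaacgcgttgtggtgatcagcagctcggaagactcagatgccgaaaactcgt
PML A_24_P198598: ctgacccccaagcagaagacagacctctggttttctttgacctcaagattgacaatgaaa
SP140 A_24_P328504: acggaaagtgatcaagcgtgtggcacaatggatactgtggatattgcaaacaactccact
SP140 A_23_P209726: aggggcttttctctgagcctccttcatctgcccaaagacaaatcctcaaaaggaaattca

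All levels below are log2 of the processed signal minus the 75th percentile of the array, so that 0 is the level of a probe brighter than 75% of the array, and all changes are resistant minus naive on that log2 scale. A level can be set against that of another array for the same probe but not against that of another probe. The call used limma over the 28221 tested probes and needed both a 2-fold change and an adjusted p (Benjamini-Hochberg) below 0.05. With 2 flasks in each line, p = 0.333 is the smallest that an exact two-sided permutation test could give for 1 probe, and a call therefore depends on the variance limma shares across the array. From 27922 to 28244 probes per array exceeded the background. The 2 naive flasks stood further apart (SD of their log2 differences 0.71) than the 2 resistant flasks (0.37), and all 4 arrays lay on 1 slide. Of 8 promyelocyte and myeloid probes 7 exceeded background on every array, and 2 of the 8, for AZU1 and ELANE, were called higher. The summed level of the 6 that were saturated on no array was 24.8 to 27.9 times the 75th percentile in naive flasks. It was 37.3 times in both resistant flasks. Within that sum PRTN3 had a change of 2.39 (limma adjusted p = 0.179, not called). Both CD33 probes (-0.28 and -0.29) and CEBPE (-0.62) were lower without overlap and not called, so the sum does not give the direction of each marker. MPO was saturated on all 4 arrays and CTSG on 2. Probes of other blood cells summed to 3.12 to 3.48 in naive and 1.67 to 1.78 in resistant flasks with CD3D called lower, and 0 of 6 stromal probes was above background on any array. The part of these markers in the results below was not tested, and in RNA from whole flasks fewer cells with a transcript and less of it per cell cannot be told apart.

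Each of the 24 probes was well above background on the 4 arrays and was tested. By limma 0 of the 24 were called, where 5.27% of all tested probes were (2.30% higher and 2.97% lower). At an unadjusted p below 0.05 there were 4 (background 19.1%), of which 3 were PML probes lower in the resistant line (background 9.77%) and 1 was an SP140 probe higher there (background 9.30%). By the methods' t-test 0 had an unadjusted p below 0.05, beside 4158 of all 28221 tested probes. After adjustment that test called 0 probes over the whole array, so its 0 calls among the 24 say nothing about them. The flasks of the lines did not overlap for 8 probes, 4 of them lower and 4 higher in the resistant line, against 53.0% of all tested probes (28.2% lower and 24.7% higher). The members' shares of called, nominal and non-overlapping probes, both directions together, were thus not above those of the array. The median change of the 24 probes was 0.028 and their median absolute change 0.22, beside -0.020 and 0.34 over all tested probes, and the signs were 15 positive and 9 negative. The division of signs was 10 positive and 14 negative after the normexp background correction, which shifted the array-wide median by 0.15, and 9 positive and 15 negative after scale normalization. These values depended on single flasks. Without the first naive flask 3 of the 24 changes had the other sign, and without the second naive flask 8 had it.

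**Figure D1:**
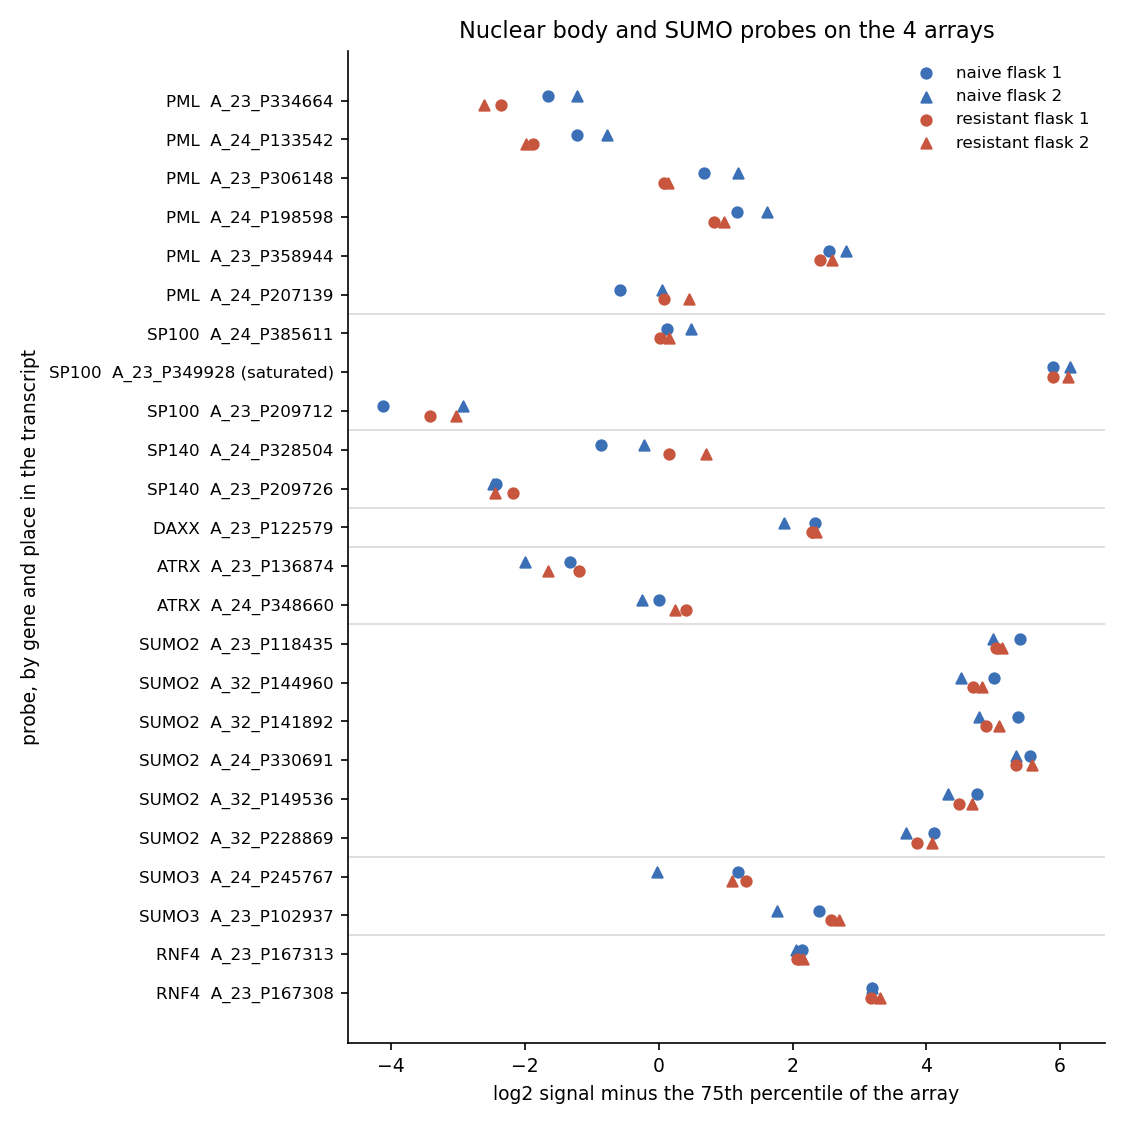
Level of each of the 24 probes on each array (log2 signal minus the 75th percentile of the array, horizontal axis), with naive flasks in blue and resistant flasks in red and probes in order of gene and place in the transcript. The 4 uppermost PML probes have both resistant flasks left of both naive flasks, while the SUMO2 and RNF4 flasks lie mixed.

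PML, the scaffold of the body and one partner of the fusion, was read by 6 probes, with changes that ranged from -1.05 to 0.53 and of which none was called. For A_23_P334664, designed on NM_033247 from base 1294 and listed without a genome position, the levels were -1.65 and -1.22 in the naive flasks and -2.36 and -2.62 in the resistant flasks. Both resistant flasks were below both naive flasks, with a change of -1.05 (standard error 0.27, 95% interval -1.72 to -0.38, 2.07-fold lower) that was not called (adjusted p = 0.11). Of all tested probes 5.66% had a lower change. A_24_P133542, at base 1593 of NM_002675 and hg19 chr15:74325552-74325611 on the plus strand, read -1.23 and -0.77 in naive and -1.88 and -1.98 in resistant flasks. Its change was -0.93 (standard error 0.26, interval -1.59 to -0.28, adjusted p = 0.136), again with no overlap between the lines. A_23_P306148, at base 1791 of the same transcript and without a position, read 0.68 and 1.19 against 0.08 and 0.14. Its change of -0.82 (interval -1.50 to -0.15) was the smallest of the 3 at an unadjusted p below 0.05 and had an adjusted p of 0.189.

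The remaining PML probes had smaller or opposite changes. A_24_P198598, at base 1941 of NM_002675 and chr15:74335421-74335480, read 1.17 and 1.62 in naive and 0.83 and 0.98 in resistant flasks. The lines did not overlap, and the change was -0.49 (interval -1.15 to 0.17, adjusted p = 0.382). A_23_P358944, the brightest PML probe, was designed on NM_033244 and lies at chr15:74328675-74328734, also on the plus strand. It read 2.55 and 2.80 in naive and 2.41 and 2.59 in resistant flasks, which overlapped, for a change of -0.17 (interval -0.77 to 0.42, adjusted p = 0.736). A_24_P207139, designed on NM_033238 and furthest along the chromosome at chr15:74338887-74338946, was the PML probe with a positive change. Its levels were -0.58 and 0.05 in naive and 0.08 and 0.45 in resistant flasks, without overlap but by a margin of only a few hundredths, and the change was 0.53 (interval -0.25 to 1.31, adjusted p = 0.419). Thus the 4 probes that list NM_002675 were the 4 member probes lower without overlap. The PML probes that do not list it were either overlapping or higher. Yet A_23_P334664 (-1.05) was designed on NM_033247, which A_23_P358944 (-0.17, overlapping) lists too. NM_033247 is therefore listed both for the lowest PML probe and for one that overlapped. The file lists at most 4 accessions per probe, so a transcript that is not listed may still carry the probe's sequence. Whether a probe lies in the part of PML that the fusion keeps, and in which exon, was not determined here.

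**Figure D2:**
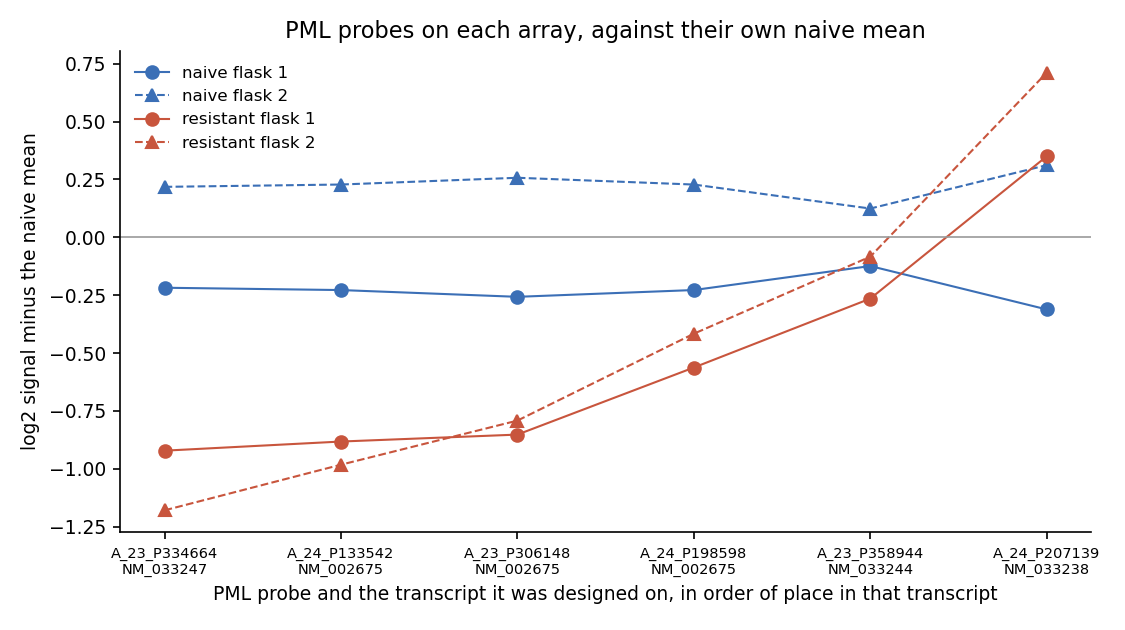
Levels of the 6 PML probes on each array, each given as the difference from that probe's own naive mean (log2, vertical axis), with the probe and the transcript it was designed on along the horizontal axis in order of place in the transcript. The resistant flasks (red) run from about 1 below the naive mean for A_23_P334664 to above it for A_24_P207139, while the naive flasks (blue) keep a gap of 0.25 to 0.62.

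The difference between probes was tested directly by subtracting the brightest PML probe on each array and fitting limma over all 7257 such same-gene pairs. Against A_23_P358944 the change of A_23_P334664 was lower by -0.88 (interval -1.52 to -0.24, unadjusted p = 0.0179, adjusted p = 0.441). The other pairs that list NM_002675 gave -0.76 (adjusted p = 0.461), -0.65 (adjusted p = 0.533) and -0.32 (adjusted p = 0.791), and A_24_P207139 gave 0.70 (interval 0.10 to 1.31, adjusted p = 0.533). In all 5 pairs the lines did not overlap, as in 39.1% of all pairs, and 4 had an unadjusted p below 0.05. Of the 16 pairs over the members 0 were called, beside 0.524% of all pairs (38 of 7257), and 4 had an unadjusted p below 0.05, beside 7.92% of all pairs. These 4 are the PML pairs named above. They all subtract the same probe and are not separate readings. Unequal change of the PML probes was therefore not shown by this test at this number of arrays.

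Both settings and flasks moved these values. Without the first naive flask the changes of the 3 lowest PML probes were -1.27, -1.16 and -1.08. Without the second naive flask they were -0.83, -0.70 and -0.57. Such a fit assumes that the lone naive flask varies like the resistant ones. After normexp the 6 changes in the order given above were -0.57, -0.55, -0.71, -0.54, -0.48 and 0.50, so that the step between the first 4 probes and the brightest one was nearly gone while the last probe kept its sign. With bright local backgrounds reset before normexp they were -0.78, -0.72, -0.73, -0.53, -0.43 and 0.55. In each of the 16 fits 5 of the 6 PML probes were negative, and A_24_P207139 was the positive one. Several of these fits alter only the p-value or the probes tested and share the same 6 changes, so they are not separate checks of direction.

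**Figure D3:**
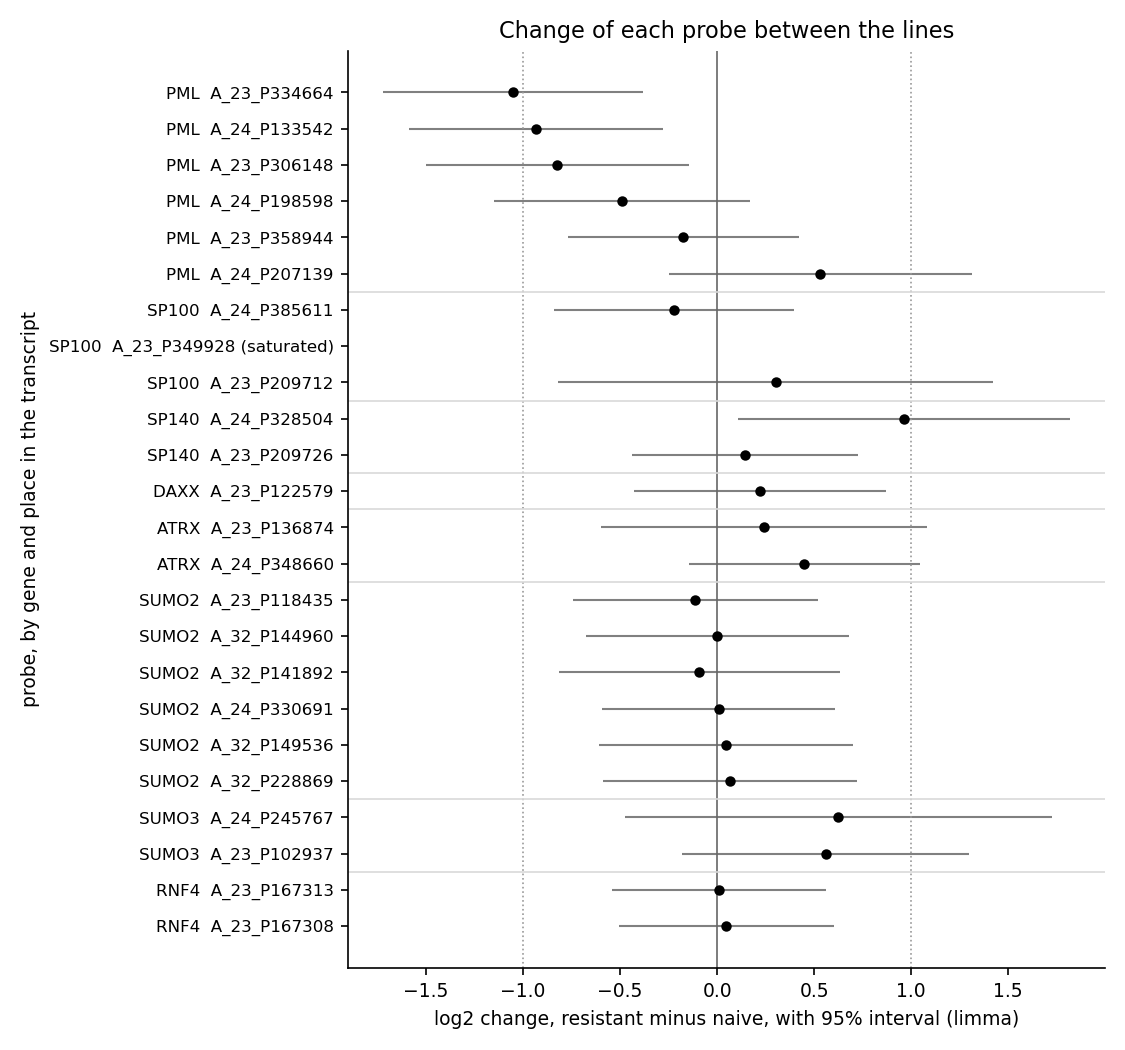
Change of each probe between the lines (log2, resistant minus naive, points) with its 95% interval from limma (bars), and dotted lines at a 2-fold change. The intervals of 3 PML probes and 1 SP140 probe leave out 0, and the SP100 probe saturated on all arrays has no point.

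SP100, a constant partner of PML in the body, showed no called change. A_24_P385611, from base 1303 of NM_003113, read 0.12 and 0.48 in naive and 0.01 and 0.15 in resistant flasks. These overlapped, and the change was -0.22 (interval -0.84 to 0.40, adjusted p = 0.674). A_23_P209712, designed on NM_001080391 at chr2:231408123-231408182, read -4.12 and -2.93 in naive and -3.42 and -3.03 in resistant flasks, so that the naive flasks enclosed the resistant ones. Its change of 0.30 had an interval of -0.82 to 1.42 (adjusted p = 0.759). This change turned with the naive flasks, at -0.30 without the first and 0.90 without the second. The third SP100 probe, A_23_P349928, was saturated on all 4 arrays, so no fold is given.

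SP140, which is expressed mainly in immune cells, had a positive change without overlap by the first of its probes and a smaller one by the other, and neither was called. A_24_P328504, from base 1528 and without a position, had levels of -0.86 and -0.22 in naive and 0.15 and 0.70 in resistant flasks. The lines did not overlap, and the change of 0.97 (standard error 0.34, interval 0.11 to 1.82, 1.95-fold) had an unadjusted p of 0.0334 and was not called (adjusted p = 0.216). Of all tested probes 13.0% had a larger absolute change. The second probe, A_23_P209726 at chr2:231177506-231177565, read -2.43 and -2.48 in naive and -2.18 and -2.45 in resistant flasks. These overlapped, with a change of 0.14 (interval -0.44 to 0.73, adjusted p = 0.785). The difference in change between the 2 probes was -0.82 (interval -1.89 to 0.25, adjusted p = 0.770), so unequal change was not shown. Without the second naive flask the change of A_24_P328504 was 1.29, and without the first naive flask it was 0.64.

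DAXX and ATRX, the pair that deposits H3.3, had positive changes that were not called. DAXX, read by 1 probe at chr6:33287260-33287319, had levels of 2.33 and 1.88 in naive and 2.30 and 2.35 in resistant flasks. The second naive flask was the low one, and the change was 0.22 (interval -0.43 to 0.87, adjusted p = 0.691). It was -0.0063 without that flask and -0.017 after normexp. ATRX, an X-linked chromatin remodeler, read 0.0077 and -0.26 in naive and 0.41 and 0.25 in resistant flasks by A_24_P348660, at chrX:76761776-76761835. The lines did not overlap there, and the change was 0.45 (interval -0.14 to 1.04, adjusted p = 0.376). Its other probe, A_23_P136874 at chrX:76763945-76764004, overlapped between the lines, with a change of 0.24 (interval -0.60 to 1.08, adjusted p = 0.741) that was 0.58 without the first naive flask and -0.098 without the second.

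SUMO2 and SUMO3 encode nearly identical modifiers that form chains. Their probes share no run of more than 7 bases with each other. The probes were not compared with the transcript of the other gene, so whether they also read it was not tested. The 6 SUMO2 probes had changes between -0.11 and 0.066, with all lines overlapping, intervals that reached from -0.82 to 0.72 and adjusted p-values of 0.851 to 1.00. The brightest, A_24_P330691 at chr17:73164133-73164192, read 5.56 and 5.34 in naive and 5.34 and 5.58 in resistant flasks, for a change of 0.0084. A 2-fold change lay outside the interval of every SUMO2 probe. The change of A_24_P330691 had the other sign after normexp (-0.20) and after scale normalization (-0.11). Of the 6 probes 4 are positioned in the file on chromosomes other than 17, where the gene lies, and A_32_P141892 is positioned elsewhere on chromosome 17, so signal from near-identical copies of SUMO2 cannot be told apart from that of the gene. Among the SUMO2 probes 2 pairs share runs of 35 and 22 bases and are not separate readings.

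SUMO3 had positive changes by both probes. A_23_P102937, at chr21:46225940-46225999, read 2.39 and 1.76 in naive and 2.58 and 2.70 in resistant flasks. The lines did not overlap, and the change was 0.56 (interval -0.18 to 1.30, 1.47-fold, adjusted p = 0.375). A_24_P245767, at chr21:46226610-46226669, read 1.18 and -0.03 in naive and 1.31 and 1.095 in resistant flasks, so that the second naive flask stood alone below the other 3. Its change was 0.62 (interval -0.47 to 1.72, adjusted p = 0.494). Without the first naive flask it was 1.23, and without the second it was 0.019. The change of the brighter probe was 0.87 without the first naive flask and 0.24 without the second.

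RNF4, the ligase that acts on SUMO-conjugated PML, had no called change, and its flasks lay close together. A_23_P167308 read 3.190 and 3.189 in naive and 3.17 and 3.303 in resistant flasks, a change of 0.047 (interval -0.51 to 0.60, adjusted p = 0.932). A_23_P167313 read 2.14 and 2.05 in naive and 2.06 and 2.15 in resistant flasks, a change of 0.010 (interval -0.54 to 0.56, adjusted p = 0.987). The flasks of the lines overlapped for both, and a 2-fold change lay outside both intervals. Both probes are designed on an RNF4 transcript but positioned on chromosome 1 in the file, while the gene lies on chromosome 4, so a near-identical copy cannot be told apart here either.

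The 2 naive flasks differed from each other for most of these genes. All 9 probes of PML and SP100 were higher in the second naive flask than in the first, by 0.25 to 1.20. All 13 probes of SUMO2, SUMO3, DAXX, ATRX and RNF4 were lower in the second, with differences from -1.21 to -0.0015751. The RNF4 differences were small, at -0.0957 and -0.0015751. The SP140 probes went both ways, at 0.64 and -0.052. Genes are grouped here by the sign of this difference, so the shared sign within a group is not a separate result. Over all tested probes 15124 of 28132 with a value in both flasks were higher in the second, with a median difference of 0.054. For PML the naive gap of 0.25 to 0.62 was smaller than the change of the 3 lowest probes, and for SUMO3 the naive gaps of 0.63 and 1.21 were larger than the changes between the lines. These are differences between single flasks, for which there is no test.

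The pathway outside the 8 genes was followed in 89 genes with 165 probes, of which 163 were tested, and the counts below cover these genes only and not each pathway as a whole. By limma 0 of the 163 were called, beside 5.27% of all tested probes, and 19 had an unadjusted p below 0.05, beside 19.1%. By the methods' t-test 15 of them had an unadjusted p below 0.05, beside 4158 of all 28221 tested probes. After adjustment that test called 0 probes over the whole array, these included. The median change was 0.13, with 101 positive and 62 negative, and the median absolute change was 0.30. The tested probes were 52 of other nuclear body proteins, 19 of SUMO conjugation, 19 of SUMO proteases, 20 of SUMO-targeted ubiquitin ligases and disposal, 32 of H3.3 chaperones and histones and 21 of interferon regulators, with 5, 2, 3, 1, 5 and 3 at an unadjusted p below 0.05 (USP7 counts in both the first and the fourth list). Medians of the first 5 lists lay between 0.086 for the ligases and 0.29 for the proteases. That of the interferon regulators was -0.24, but their signs were nearly even, with 10 positive and 11 negative changes. Their median absolute change was 0.50. Calls among these probes moved when single flasks were left out, as did calls over the whole array.

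**Figure D4:**
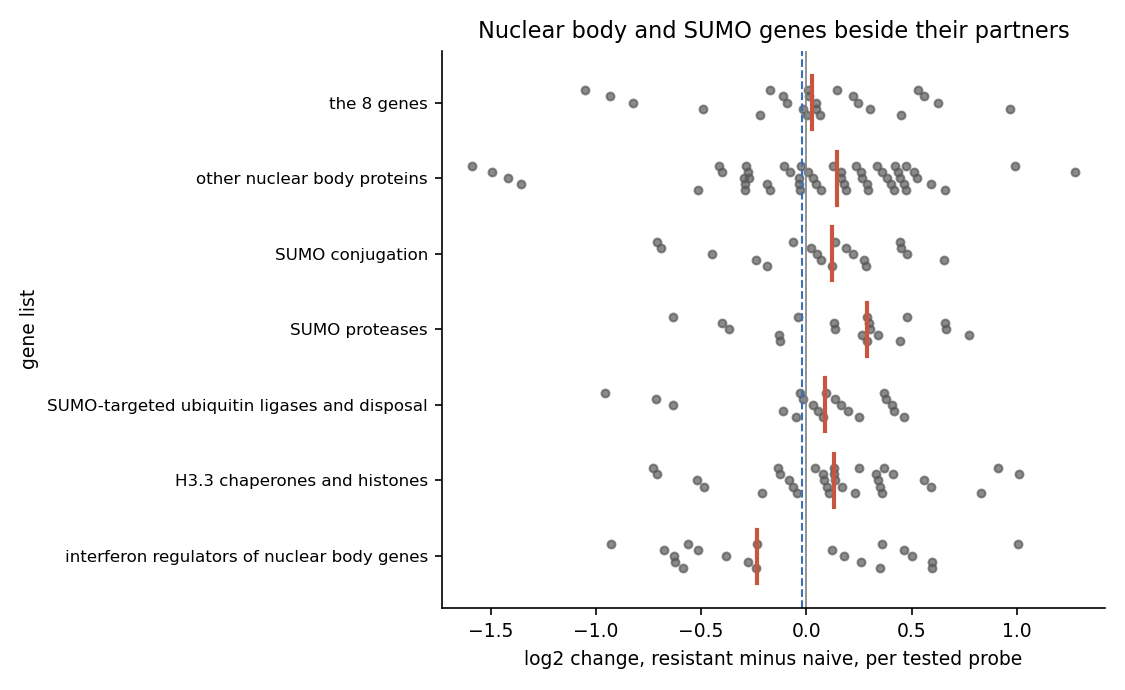
Change of each tested probe (log2, resistant minus naive, grey points) of the 8 genes and of the partner lists, with the median of each list as a red bar and that of all tested probes as a dashed line. Medians run from -0.24 for interferon regulators to 0.29 for SUMO proteases, and the points of the 8 genes lie between -1.05 and 0.97.

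RARA, the other partner of the fusion, is given whatever its result. It read 1.63 and 1.76 in naive and 2.06 and 2.05 in resistant flasks by its brighter probe, at chr17:38512928-38512987, a change of 0.36 without overlap (adjusted p = 0.439), and -0.31 by its other probe (adjusted p = 0.550). The brighter RARA probe and the brightest PML probe thus had opposite signs, neither past the threshold. HIPK2, a kinase found at nuclear bodies and named after its values were seen, was lower without overlap by all 4 probes, 2 of which overlap in position, from -1.36 to -1.59 (adjusted p = 0.0670 to 0.180). Without the first naive flask the 4 changes were -1.90 to -2.07, and without the second they were -0.81 to -1.19. In the other direction, and named in the same way, ISG20, an interferon-induced exonuclease, had a change of 1.27 (adjusted p = 0.358), and JAK2, a kinase of cytokine receptors, one of 1.01 (adjusted p = 0.0742), both without overlap.

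The 3 genes whose brightest probe ran most like the brightest PML probe over the 4 arrays, each centred on its own mean, were OS9, VWF and PFDN2, at Euclidean distances of 0.013, 0.030 and 0.035 on the log2 scale. They were the nearest of 12852 genes, of which 1711 lay within 0.3.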

How the data were processed

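Gene expression was read from 1-colour Agilent arrays of 2 naive and 2 ATO resistant NB4 flasks. Images had been processed in Feature Extraction 10.5.1.1, and the processed signal that the authors deposited is a linear intensity with the background taken off. Mean spot intensity and median local background, from the same deposited output, served for normexp. A log2 table deposited by the authors, on the 75th percentile scale, was used as an alternative (correlation with the values below at or above 0.9998 on each array).

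Here control spots and outlier spots were removed, intensities were put on the log2 scale in R 4.3.3, replicate spots were averaged, and each array was centred on its 75th percentile. A probe entered the test if both arrays of a line saw it well above background. The comparison used limma 3.58.1 (lmFit, eBayes) with Benjamini-Hochberg adjustment over the array. For probe pairs, the brightest probe of a gene was subtracted first. The fits were tested on simulated data. Arrays have no read depth, so their number limits the precision. Groups came from the sample titles. The members, partner lists and markers were chosen with earlier results of these data known, and no test over a list was run. Named genes were all members, partner genes called by their brightest probe, RARA, and the 3 genes most like PML. HIPK2, ISG20 and JAK2 were named after their values were seen. Some genes of the partner lists are not reported here, and the list counts leave them out. Positions are the file's, on hg19, and 24 of 24 member transcripts matched the symbol in RefSeq GRCh38.p14. Of the member probes 19 have a position. Alternatives were normexp (offset 50, also with local backgrounds over 100 reset to the median), quantile, scale and median normalization, other filters on dim probes, an intensity trend, the deposited table, the methods' t-test, adjusted p alone, the replicate number as a block, the mean over a gene's probes and each flask left out. The slide could not be a block because there was 1.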

Additional observations from a re-analysis of the deposited data

How the results depend on the processing

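The count of called member probes was 0 under every alternative that kept all 4 arrays, and 0 to 4 with 1 flask left out. Among probe pairs of the members 0 were called in every fit. Of 234 values of single genes and probes under the alternatives 13 reversed and the others kept their direction. None of these genes or probes was called in the main fit, and a call was gained only where a flask was left out. Alternatives that alter only the p-value or the probes tested cannot move a direction. Of the partner probes counted, 1 was called with bright local backgrounds reset and after the median shift (HIPK2), 2 with an intensity trend (HIPK2 and JAK2), and 0 to 9 with 1 flask left out. Over all probes 1487 were called, against 0 after normexp (929 with limma at an unadjusted p below 0.05), 0 by the methods' t-test (4158 at an unadjusted p below 0.05), 760 with probes above background on all 4 arrays and 728 to 4538 with 1 flask left out. For same-gene pairs the 38 calls became 0 with the replicate block (750 at an unadjusted p below 0.05), 0 with probes above background on all 4 arrays (426), 0 after normexp (112), 25 with bright local backgrounds reset and 0 to 191 with 1 flask left out. The normexp fits of the pairs were chosen after seeing the data. Over all 24 member probes 8 had the other sign without the second naive flask, 3 without the first, 6 without the second resistant flask and 2 without the first, and SUMO2 A_32_P141892 (-0.092) was 0.20 without the first naive flask. Reversed among the single values were SP100 0.041 as a mean over probes, DAXX -0.017 after normexp, and SUMO2 -0.20 after normexp, -0.13 with backgrounds reset, -0.11 after scale normalization and -0.014 as a mean over probes. RNF4 was -0.083, -0.017 and -0.029 after normexp, with backgrounds reset and after scale normalization. With 1 flask left out DAXX lay between -0.0063 and 0.45, SUMO2 between -0.11 and 0.13 and RNF4 between -0.019 and 0.11. The cause was not tested, except that the stricter filter tests fewer probes. The deviations of same-numbered flasks correlated at 0.12 over 2 pairs, too few to show that the numbers pair the flasks. The replicate block gave 0 member calls, 0 partner calls and 1375 calls over all probes. Saturation of 1 SP100 probe and probe copies elsewhere in the genome limit SP100, SUMO2 and RNF4.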
